A study of Mus musculus with 40 samples.

Results

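Adipokines are proteins that fat tissue releases into the blood or into its own surroundings. The 8 adipokine genes described here are Adipoq, Lep, Retn, Cfd, Rbp4, Rarres2, Nampt and Apln. They were taken by name: a probe belonged to the set when the gene symbol in the deposited fold change table was one of these 8. This gave 12 probes of the 40628 on the array, and 8 genes of 29411.

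The series followed C57BL/6J mice that were weaned at 3 to 4 weeks of age and split into 5 diet groups of 30 animals. Total RNA of cells labelled as subcutaneous stromal vascular cells (SVCs), called infiltrating macrophages in the series title, was hybridised to 1-colour Agilent 44K arrays. LFC mice ate a low-fat diet with 10% of calories from fat, and HFC mice a high-fat, high-sucrose diet with 60% of calories from fat. HF5, HF20 and HF75 mice ate the HFC diet together with 5, 20 or 75 µg of KAL-1, a plant-based formulation given in water. LFC and HFC arrays covered days 1, 6, 10 and 14 and weeks 0, 3, 6, 9, 12, 15 and 18. HF5 arrays covered weeks 3 to 18, and HF20 and HF75 arrays weeks 3 to 15. Each diet had 1 array at each labelled time, and the labels do not say how many mice 1 array stands for. The labels state that 5 animals of each group were taken every 3 weeks. Of the 40 arrays deposited, 38 had titles and diet labels that named the same diet. Weeks were placed on the day scale as day 14 plus 7 days per week, so day 14 and week 0 fall together.

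Mature adipocytes make most circulating adiponectin (Adipoq), leptin (Lep), complement factor D (Cfd) and, in mice, resistin (Retn), and preadipocytes in the stromal fraction turn these genes on as they differentiate. Leptin tells the brain how much fat is stored, adiponectin raises insulin sensitivity in liver and muscle, and mouse resistin lowers it. Other adipokines have wider sources. Retinol binding protein (Rbp4) also comes from the liver, chemerin (Rarres2) attracts macrophages and other immune cells, Nampt makes a precursor of NAD inside nearly all cells, and apelin (Apln) is a vascular peptide hormone.

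Levels are given as log2 of the processed spot intensity minus log2 of the 75th percentile of the same array, so 0 is the 75th percentile. A probe counted as well above background on an array by the scanner software's own mark. A value without that mark that lay below the lowest marked level of its array was raised to that level. All 8 genes were measured on nearly all arrays: of 38 arrays, Cfd and Rarres2 were well above background on 38, Rbp4, Nampt and Apln on 37, Retn on 36, and Adipoq and Lep on 35. Adipoq had no value on the week 0 LFC array and Lep none on the day 14 LFC array, where their spots were marked as outliers.

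Bright spots reached the top of the scanner's range. Saturation was marked for Cfd on 16 arrays, Adipoq on 9, Rbp4 on 7, Retn on 6 and Rarres2 on 6, and for Lep, Nampt and Apln on 0. A saturated level is a lower bound, and its place on the log2 scale is set by the 75th percentile of that array. Differences that involve such spots are understated or have no known order.

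Several arrays stood apart. The LFC array of week 3 was dim, with a 75th percentile of 7.81 intensity units and 16.8% of spots well above background, against 52.2% to 86.5% on the other 37. Its lowest marked level was -0.02, and Adipoq, Lep, Retn, Nampt and Apln were all placed there. The LFC array of day 14 had 20.8% of spots marked as outliers. The LFC array of week 18 had the lowest level of all 38 arrays for 6 members and the second lowest for Apln. At week 9 the letters WS stand in 4 of the 5 titles, those of LFC, HFC, HF5 and HF20, and these 4 arrays shared 1 scan. The HF75 array of week 9 has neither the letters nor the scan. Each of the 16 scans held arrays of 1 time point, and the 40 arrays lay on 32 slides.

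**Figure D1:**
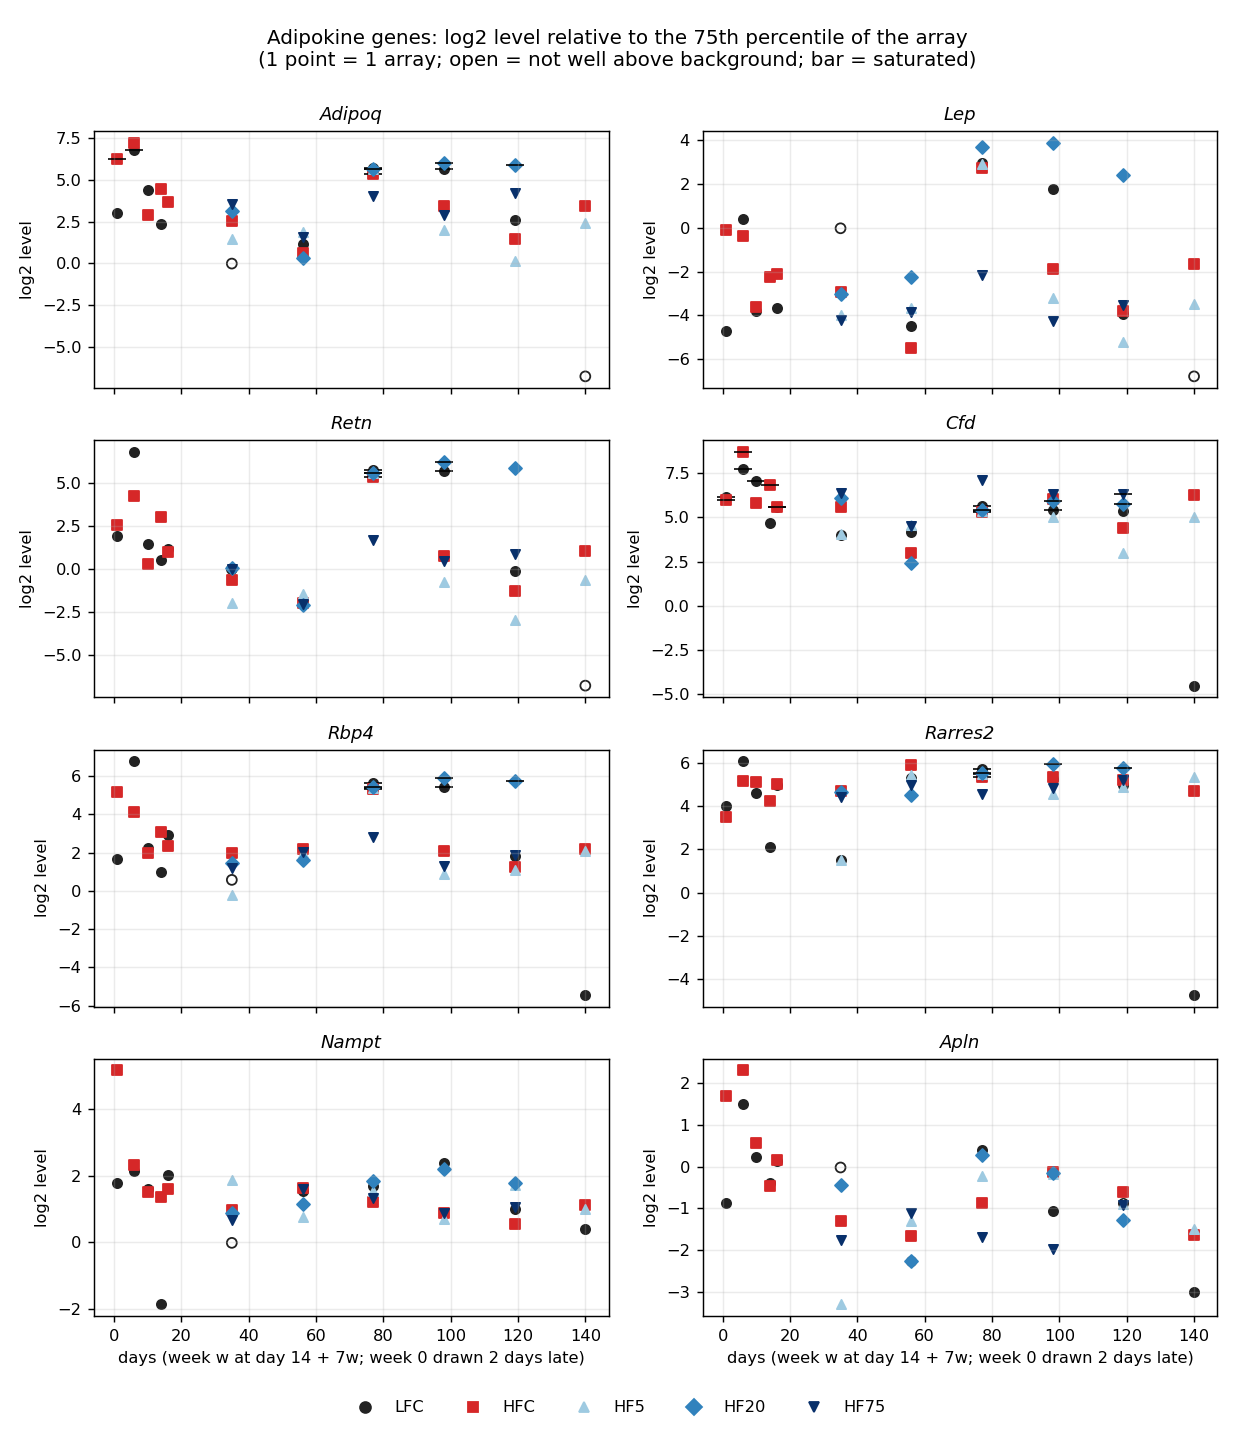
Level of each adipokine gene (log2 scale, 0 at the array's 75th percentile) against the day for 38 arrays, coloured by diet; open points were not well above background and bars mark saturated spots. Adipoq, Lep, Retn and Rbp4 were high on the same few arrays of weeks 9, 12 and 15. The highest levels of Adipoq, Retn and Rbp4 were at day 6, though saturated levels are lower bounds. The LFC array of week 18 lay below all others for 6 of the 8 genes.

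Adipoq encodes adiponectin. In LFC its level ran from -6.78 at week 18 through a median of 2.81 to 6.81 at day 6, and in HFC from 0.60 at week 6 through 3.45 to 7.23 at day 6. HF5 arrays ran from 0.12 through 1.92 to 5.67. The lowest and highest HF5 arrays were those of weeks 15 and 9. HF20 levels at weeks 3, 6, 9, 12 and 15 were 3.14, 0.31, 5.63, 5.99 and 5.87, and the last 3 were saturated. HF75 levels at the same weeks were 3.54, 1.60, 4.01, 2.87 and 4.24. The HF20 and HF75 ranges overlapped, and week 6 had the lowest level of HFC, HF20 and HF75. Group means, from the highest, were HF20 4.19 (SD 2.46, n = 5), HFC 3.75 (SD 1.97, n = 11), HF75 3.25 (SD 1.06, n = 5), LFC 2.49 (SD 3.90, n = 10) and HF5 2.25 (SD 1.85, n = 6). No neighbours in that order were farther apart than their SDs, and the groups cover different time points.

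Lep encodes leptin, and none of its spots was saturated. It was not well above background on the LFC arrays of weeks 18 and 3, so the lower end of the LFC range is a raised value and not a measured level. The LFC arrays ran from -6.78 at week 18 through a median of -3.72 to 2.96 at week 9, and the HFC arrays from -5.47 at week 6 through -2.10 to 2.72 at week 9. HF5 ran from -5.23 at week 15 through -3.56 to 2.92 at week 9. In these 3 diets the highest Lep level was the week 9 array with WS in its title. HF20 levels at weeks 3 to 15 were -3.03, -2.24, 3.67, 3.89 and 2.41, while HF75 levels were -4.20, -3.85, -2.14, -4.23 and -3.51. Every HF20 level was above the HF75 level of the same week, and the HF20 arrays of weeks 9, 12 and 15 were above all HF75 arrays. Mean Lep levels ran from 0.94 in HF20 (SD 3.32) through -1.94 in HFC (SD 2.18), -2.22 in LFC (SD 3.23) and -2.77 in HF5 (SD 2.88) to -3.59 in HF75 (SD 0.86). Each step in that order was smaller than the larger SD of the groups on its sides.

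Retn encodes resistin. Its LFC levels ran from -6.78 at week 18 through a median of 1.18 to 6.79 at day 6, and its HFC levels from -1.96 at week 6 through 0.96 to 5.36 at week 9. HF5 ran from -2.95 at week 15 through -1.11 to 5.59 at week 9. The HF5 array of week 9 was alone above 0 in its diet. HF20 levels at weeks 3 to 15 were 0.04, -2.07, 5.57, 6.21 and 5.88, with saturation at weeks 9 and 12, and HF75 levels were 0.01, -2.06, 1.69, 0.43 and 0.89. At weeks 3 and 6 the HF20 and HF75 arrays were nearly level, and at weeks 9, 12 and 15 HF20 was far above HF75. The second Retn probe, which shares a run of 22 of 60 bases with the first, followed it with r 1.00 over the arrays.

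Cfd encodes complement factor D, also called adipsin, the protease that starts the alternative complement pathway by cleaving factor B. The LFC range was -4.52 at week 18 to 7.76 at day 6 with a median of 5.42, and the HFC range 2.99 at week 6 to 8.71 at day 6 with a median of 5.84. HF5 ran from 3.00 through 4.81 to 5.38. With 16 of 38 arrays saturated, the upper ends of these ranges are bounds. HF20 levels at weeks 3 to 15 were 6.12, 2.41, 5.40, 5.91 and 5.77, the last 3 saturated, and HF75 levels were 6.41, 4.54, 7.11, 6.33 and 6.35, the last saturated. HF75 levels were thus high except at week 6, the week at which HFC and HF20 also had their lowest Cfd level.

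Rbp4 carries retinol. It ran from -5.44 at week 18 through a median of 2.20 to 6.77 at day 6 in LFC, from 1.22 through 2.19 to 5.32 in HFC, and from -0.22 through 1.54 to 5.36 in HF5. HF20 levels at weeks 3 to 15 were 1.46, 1.63, 5.42, 5.89 and 5.75, and HF75 levels 1.21, 2.02, 2.81, 1.28 and 1.88. The saturated HF20 arrays of weeks 9, 12 and 15 lay above all HF75 arrays, and at weeks 3 and 6 both diets were low. The Rbp4 probe shares a run of 39 of its 60 bases with the probe of a predicted gene, LOC100047573, so their signals are not independent.

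Rarres2 encodes chemerin and lay in a narrow range on most arrays. HFC levels ran from 3.51 at day 1 through a median of 5.12 to 5.90 at week 6 (SD 0.64), and HF75 levels at weeks 3 to 15 were 4.41, 4.95, 4.55, 4.82 and 5.20 (SD 0.31). HF20 levels were 4.66, 4.49, 5.52, 5.95 and 5.75, the last 3 saturated. The low values were few. They were the LFC arrays of week 18 (-4.73), week 3 (1.50) and day 14 (2.12) and the HF5 array of week 3 (1.50), while the other LFC arrays lay between 4.02 and 6.07 and the other HF5 arrays between 4.55 and 5.47.

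Nampt encodes the enzyme that makes nicotinamide mononucleotide, also released from cells as visfatin. Its levels were narrow in HF5 (0.71 to 1.86), HF20 (0.89 to 2.20) and HF75 (0.66 to 1.60). HFC ran from 0.54 at week 15 through 1.36 to 5.15 at day 1, and LFC from -1.86 at day 14 through 1.60 to 2.37 at week 12. The HFC array of day 1 and the LFC array of day 14 were thus the extremes of all 38, and the LFC array of week 18 (0.40), so low for other members, was within the range of the rest for Nampt. The second Nampt probe did not follow the first (r 0.26 over the arrays), so the first probe's pattern was not seen with another probe of the gene.

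Apln encodes apelin. LFC levels ran from -2.99 at week 18 through -0.40 to 1.50 at day 6, HFC from -1.66 at week 6 through -0.47 to 2.30 at day 6, and HF5 from -3.29 at week 3 through -1.09 to -0.18 at week 12. HF20 levels at weeks 3 to 15 were -0.44, -2.26, 0.28, -0.16 and -1.28, and HF75 levels -1.75, -1.12, -1.68, -1.96 and -0.92. The day 6 arrays were the highest of LFC and HFC, and no HF5 or HF75 array reached 0. A second Apln probe followed the first with r 0.94, and the remaining one was well above background on 9 arrays and had r 0.36.

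Whether levels differed between time points, whatever the diet, was tested with limma's moderated F test over all 38 arrays, with diet in the model. Of 28157 probes tested, 9.51% passed an adjusted p (Benjamini-Hochberg) of 0.05, and 3 of the 8 members did. Retn had an adjusted p of 0.0119, Apln 0.0237 and Lep 0.0261. The second Retn probe also passed (0.0141). The second Apln probe did not (0.0941), and with the mean over the probes of a gene Lep and Retn passed and Apln did not (8.77% of all genes), so the Apln call rests on 1 probe. Adipoq at 0.0502 was just outside, followed by Rbp4 at 0.0721, Cfd at 0.137, Nampt at 0.221 and Rarres2 at 0.291. The count was not stable. Without week 9, 1 member passed (Apln, adjusted p 0.0451; 3.99% of all probes), without the 4 WS arrays 0 did (2.95% of all probes called), and with scan as a random block 0 did (0.21% of all probes). Leaving out the LFC arrays of week 3 and day 14 gave 4 members, with Adipoq added, and 28.4% of all probes. Leaving out the week 18 LFC array as well gave 6, with Cfd and Rbp4 added, and 31.6% of all probes. Leaving out the WS arrays or the week 18 array and the scan block were chosen after seeing the data. With arrays of 1 time point in each scan, scan and time point cannot be told apart.

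For the 3 genes that passed, the means by time point are given as a description. Mean Retn over the diets was 5.50 at day 6 (SD 1.82, n = 2), -0.51 at week 3 (SD 0.86, n = 5), -1.89 at week 6 (SD 0.26, n = 5) and 4.79 at week 9 (SD 1.74, n = 5). At week 6 Retn was low in all 5 diets, between -2.07 and -1.44. Lep had means of 0.03 at day 6, -3.94 at week 6 and 2.03 at week 9 (SDs 0.53, 1.19 and 2.36). Apln was highest at day 6, with a mean of 1.90 (SD 0.57), and its means were -1.72 at week 6 (SD 0.53), -0.42 at week 9 (SD 0.86) and -2.04 at week 18 (SD 0.83, n = 3). The highest means of Retn and Lep were at day 6 and week 9, and that of Apln at day 6. Those of week 9 rest on the 4 WS arrays, as the HF75 array of that week had Lep at -2.14 and Retn at 1.69. The day 6 and WS arrays also had mature adipocyte list levels of 5.02 to 6.58, where the week 6 arrays had 0.42 to 1.99. Epithelial list levels went the other way, at 0.84 to 3.74 on the week 6 arrays and -5.98 to -3.90 on the WS arrays. On the day 6 arrays they were -4.05 in LFC and -1.42 in HFC.

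The effect of the high-fat diet at a single time point rests on 1 HFC and 1 LFC array, with no replicate check. A pair was counted as past 2-fold when its brighter spot was well above background and its dimmer spot was not saturated. At day 1, 5 members were higher in HFC by more than 2-fold (55.2% of all probes were past 2-fold in either direction). Lep was 24.7-fold, Rbp4 11.3-fold, Nampt 10.4-fold, Apln 5.96-fold and Adipoq at least 9.28-fold higher in HFC. Rarres2 was 1.42-fold lower. On the same pair the adipocyte list described below was 5.35 in HFC and 2.60 in LFC, the macrophage list -1.90 and 0.37, the B cell list -3.29 and 2.59 and the T cell list -4.29 and 0.87. These 2 arrays were scanned apart, and what sets them apart was not tested. At day 6, Retn and Rbp4 were lower in HFC, by 5.98-fold and 6.35-fold (53.8% of all probes past 2-fold). On that pair the muscle list was 5.30 in LFC and 0.82 in HFC, and the B cell list 0.85 and -1.94. The T cell list was -0.52 and -2.53, the neutrophil list -0.27 and -2.59 and the epithelial list -4.05 and -1.42. At day 10 the lower genes were Adipoq (2.86-fold), Retn (2.24-fold) and Cfd (at least 2.37-fold), with 23% of all probes past 2-fold. There the B cell list was 1.82 in LFC and -1.52 in HFC, and the T cell list 0.57 and -2.03. Of the genes past 2-fold at day 1, Rbp4 at day 6 and Adipoq at day 10 were past 2-fold in the other direction, while Apln was higher in HFC at all 3 days.

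The pairs labelled day 14 and week 0, placed on 1 day here, gave different counts. On the day 14 pair, 6 of 7 members with a value were higher in HFC by 4.19-fold to 9.35-fold (Cfd at least 4.39-fold), but the LFC array had 20.8% outlier spots and 77.6% of all probes were past 2-fold. On the week 0 pair, on 1 slide, Lep alone was past 2-fold, at 2.92-fold higher in HFC, and 6.43% of all probes were. At week 3 Adipoq, Cfd, Rbp4 and Rarres2 were higher in HFC (21.1% of all probes past 2-fold), against the dim LFC array.

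At weeks 6 to 15 each member past 2-fold was lower in HFC. At week 6 this was Cfd (2.3-fold; 22.9% of all probes past 2-fold) and at week 9 Apln (2.4-fold; 15.2%). At week 12 there were 5 (45.6% of all probes): Retn at least 30.6-fold, Lep 12.6-fold, Rbp4 at least 10.1-fold, Adipoq at least 4.48-fold and Nampt 2.83-fold lower in HFC. The LFC array of week 12 had a mature adipocyte list level of 5.35 and the HFC array 2.60. On the same pair the muscle list was -4.13 in LFC and 5.16 in HFC, and the epithelial list -5.73 and -2.14. The T cell list was -4.54 and -2.47, and the B cell list -3.03 and -0.88. At week 15 Adipoq and Retn were lower, by 2.19-fold and 2.29-fold (23.1% of all probes). At week 18 the sign turned: 7 members were higher in HFC (45.3% of all probes), Cfd by 1799-fold, Rarres2 by 677-fold, Rbp4 by 197-fold, and Adipoq, Retn and Lep by at least 1184-fold, 230-fold and 34.7-fold. For these 7 genes the HFC levels of that week lay within the range of the other HFC arrays, and the LFC levels lay below all other LFC arrays.

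**Figure D2:**
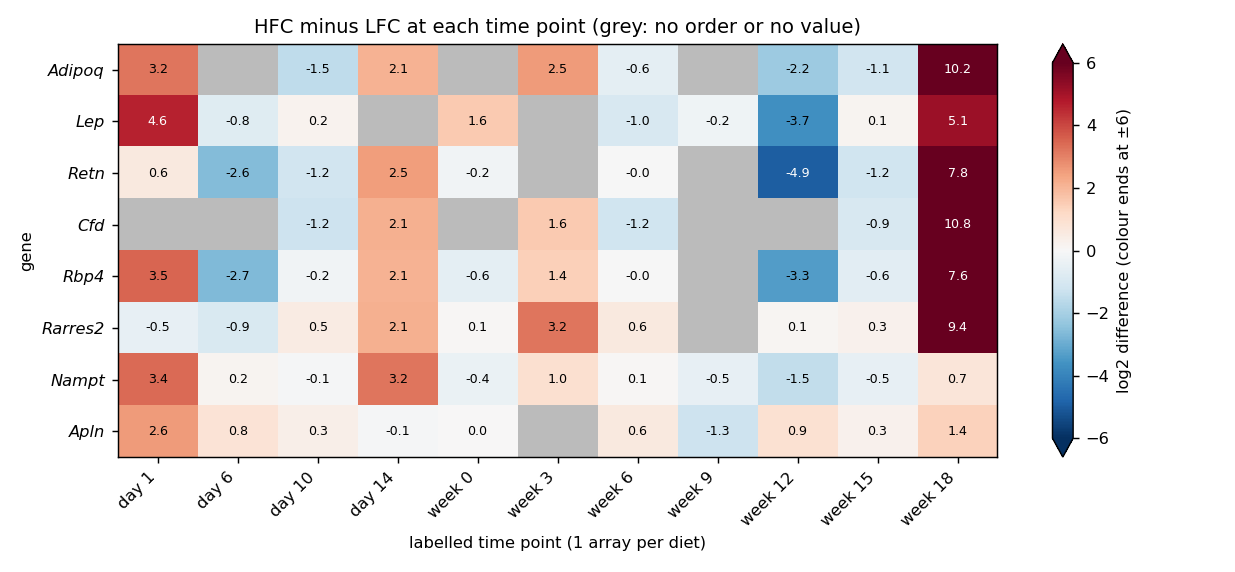
HFC minus LFC difference (log2) of each adipokine gene at the 11 labelled time points, 1 array per diet, with grey where a spot was dropped or the order of the pair was not known. Differences were mostly above 0 at days 1 and 14 and at weeks 3 and 18, and at or below 0 for Adipoq, Retn and Rbp4 at day 10 and weeks 6, 12 and 15.

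Over the 11 pairs, the question was whether the high-fat diet shifted these genes at all. limma with time point as a block called 0 of 29267 probes (0%), 820 at an unadjusted p under 0.05, and 0 members, none of them at an unadjusted p under 0.05 either. Rarres2 had the largest difference, 1.32 (SE 0.77, 95% interval -0.34 to 2.98, adjusted p 0.94), and was higher in HFC in 8 of the 10 pairs whose order is known. Adipoq differed by 1.27 (interval -0.84 to 3.38, up in 4 of 8 such pairs), Cfd by 1.11 (3 of 6) and Retn by -0.02 (interval -1.82 to 1.78, 3 of 9). The members' median difference was 0.56 with 7 of 8 above 0, against -0.08 over all probes and 0.38 for the mature adipocyte genes named below (6 of 8 above 0). Much of that median rests on few LFC arrays: without week 18 it was 0.21, and without weeks 3 and 18 and day 14, chosen after seeing the data, it was -0.16, with Adipoq at -0.31, Cfd at -0.29, Rbp4 at -0.53 and Rarres2 at -0.03. Lep differed by 0.31 (interval -1.37 to 1.99). Intervals this wide leave room for differences of over 2-fold in either direction for Lep, Retn and Rbp4 (-1.09 to 2.33).

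Whether the high-fat difference itself changed between the first 14 days (with week 0) and weeks 3 to 18 was tested as an interaction. limma called 0 of 29267 probes (0%; 1244 at an unadjusted p under 0.05) and 0 members. With normexp background correction it called 4966 probes (17%) and again 0 members, so the count over all probes depended on that setting. The largest member values were 1.95 for Rarres2 (interval -1.33 to 5.23, adjusted p 0.807), -1.82 for Lep (interval -5.23 to 1.59) and 1.43 for Cfd (interval -2.47 to 5.33), against a median over all probes of -0.50. Without week 18 the Adipoq value went from 0.37 to -1.39 and that of Retn from 0.29 to -1.26, so the signs of these values depended on that pair. Without the same week Rarres2 was 0.51, Lep -2.93 and Cfd -0.38, and without day 1 Lep was -0.75 and without week 12 -1.17.

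The KAL-1 diets were each compared with HFC at the same weeks, to see whether the formulation altered the response to the high-fat diet. The 3 comparisons share their HFC arrays, so they are not independent of each other. HF5 and HFC arrays shared a scan at each week, HF20 and HFC at each but week 3, and HF75 and HFC at weeks 12 and 15 alone. In HF5 minus HFC, limma called 0 of 29200 probes (0%; 1507 at an unadjusted p under 0.05). Retn had the lowest p of the members (0.0357, adjusted p 0.958), with a difference of -0.91 (SE 0.36, interval -1.75 to -0.08), and was up in 1 of the 5 pairs whose order is known. All other members but Nampt (0.22) were also below 0, from -0.19 for Apln to -0.66 for Rarres2, and the median was -0.60 against 0.00 over all probes. With normexp the medians were -0.33 and -0.30, so the members did not stand apart under that setting. Without week 3 the members' median was -0.37 and Rarres2 was -0.16. The mature adipocyte genes had a median of -0.34, with 2 of 8 above 0.

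In HF20 minus HFC, 0 of 30832 probes were called (0%), with 3648 at an unadjusted p under 0.05 and a lowest adjusted p of 0.406. Lep differed by 3.21 (SE 1.00, interval 0.79 to 5.62, p 0.0169, adjusted p 0.406) and was higher in 4 of 5 pairs. The HFC levels of Lep at weeks 3 to 15 were -2.91, -5.47, 2.72, -1.88 and -3.78, so HF20 was above HFC at weeks 6, 9, 12 and 15 and just below at week 3. Retn differed by 2.68 (interval -0.22 to 5.58), Adipoq by 1.51 (interval -0.18 to 3.20) and Rbp4 by 1.47 (interval -0.69 to 3.63), with saturated HF20 spots at 2 weeks for Retn and 3 for Adipoq and Rbp4, and a saturated HFC spot at week 9 for each. Without week 15 these 3 were 1.55, 0.79 and 0.71, and without week 12 Rbp4 was 0.88. Lep was 2.46 without week 15. Rarres2 (-0.03), Apln (0.14) and Cfd (0.24) were near 0, and the signs of all 3 changed under other settings. The members' median was 1.00 with 7 of 8 above 0, against 0.08 over all probes. It was 0.53 without week 15 and 0.61 without week 12. The mature adipocyte genes moved with the members: all 8 were above 0 in this comparison, with a median of 1.70. Of them 4 were at an unadjusted p under 0.05 and 0 were called. The HF20 arrays of weeks 9, 12 and 15 had adipocyte list levels of 5.23, 5.77 and 5.47, where HFC had 5.02, 2.60 and 0.88. Among the 10 arrays with list levels of 5.02 or more, list genes were often saturated (Cidec and Gpd1 on 9 each). The levels above 5 may thus be lower bounds, and the order at week 9 is not certain. The list median of 1.70 carries the same limit. The part of the adipocyte genes in the Lep difference was not tested, and fewer cells of a type and less RNA per cell cannot be told apart in these bulk samples.

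In HF75 minus HFC, 293 of 28913 probes were called (1.01%), 234 of them up, and 0 of 8 members. At an unadjusted p under 0.05 there were 4208 probes (14.6%). The 293 fell to 0 without week 3, 8 without week 6, 207 without week 9, 92 without week 12 and 35 without week 15. They also fell to 1 without the time point block and to 0 with all 38 arrays in 1 fit. At weeks 3, 6 and 9 the HF75 and HFC arrays were scanned apart, so diet and scan cannot be told apart in those pairs. With scan as a random block 355 probes (1.23%) and 0 members were called. Cfd came closest, with a difference of 1.27 (SE 0.32, interval 0.52 to 2.02, p 0.00517, adjusted p 0.144) and higher HF75 levels in the 4 pairs whose order is known. HFC levels of Cfd at weeks 3 to 15 were 5.59, 2.99, 5.33, 6.07 and 4.42 against HF75 levels of 6.41, 4.54, 7.11, 6.33 and 6.35. The HFC spot of week 9 was saturated, so the order of that pair is not known, and the HF75 spot of week 15 was saturated, so its difference is a lower bound. Under the alternatives the adjusted p ran from 0.0542 to 0.946. Rarres2 was lower in HF75 in 5 of 5 pairs, by a small amount (-0.51, interval -1.09 to 0.07, adjusted p 0.407), with the HFC spot of week 9 saturated. Lep (-1.32), Rbp4 (-0.72), Apln (-0.57) and Retn (-0.25) were below 0 with intervals that cross it. Without week 9 Lep was -0.43, Rbp4 -0.27 and Retn 0.60, without week 6 Lep was -2.06, without week 15 Retn was -0.87, and without week 12 Apln was -0.26. The median of the members was -0.38, against -0.01 over all probes. It was -0.10 without week 9, and with normexp it was -0.33 against -0.23. The second Apln probe differed by -0.97 (interval -1.91 to -0.02, p 0.0458, adjusted p 0.331). The adipocyte list had 5 of 8 genes above 0 with a median of 0.31.

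**Figure D3:**
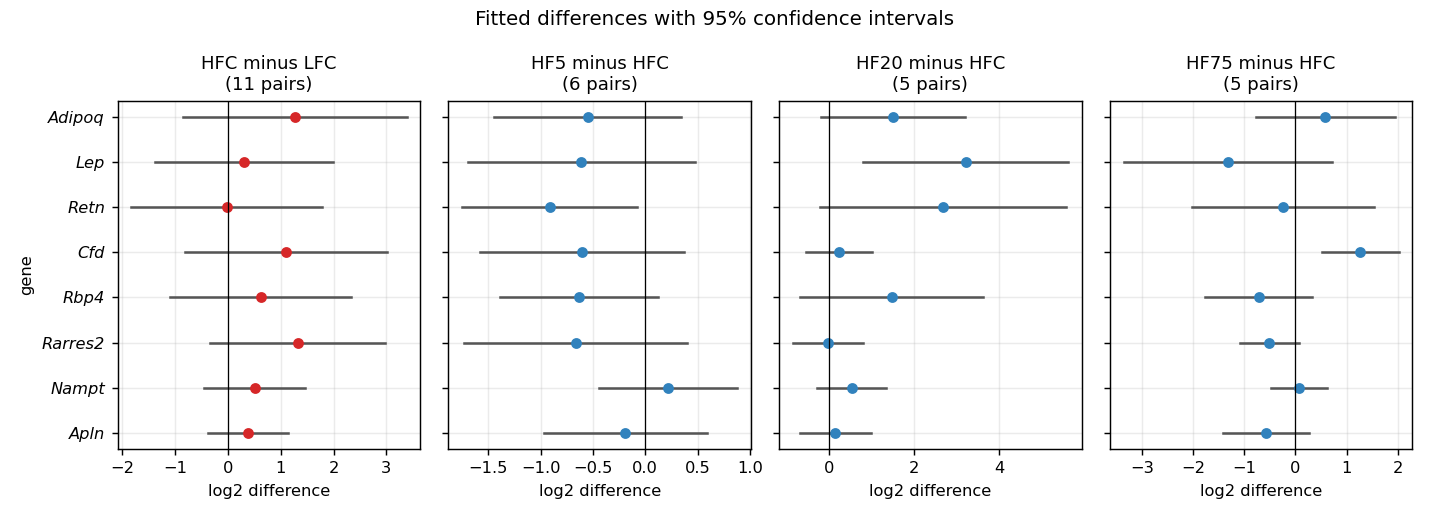
Fitted log2 difference of each adipokine gene in the 4 diet comparisons (points) with 95% confidence intervals (lines), from limma with time point as a block; HFC minus LFC used 10 pairs for Adipoq and Lep. Intervals that leave out 0 were those of Retn in HF5 minus HFC, Lep in HF20 minus HFC and Cfd in HF75 minus HFC, and none of the 3 passed after adjustment over all probes.

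Because several members are adipocyte products, their levels were set beside 8 other mature adipocyte genes (Plin1, Plin4, Cidec, Lipe, Slc2a4, Adrb3, Car3 and Gpd1). Although the samples are labelled SVCs, all 8 of these genes were well above background on every array but the LFC arrays of day 10 (7 of 8), week 3 (3 of 8) and week 18 (5 of 8). The 8 macrophage genes were also present, all of them well above background on every array but the LFC arrays of day 6 (7 of 8), day 14 (7 of 8) and week 3 (0 of 8) and the HFC array of day 6 (6 of 8). Macrophage list levels ran from -1.90 on the HFC array of day 1 to 2.02 on the HFC array of week 6.

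The adipocyte list, as the mean log2 level of its 8 genes, split the arrays. On 27 arrays it lay between 0.42 and 3.58, on 10 between 5.02 and 6.58, and on the LFC array of week 18 at -3.51. The 10 high arrays were those of day 6 (LFC and HFC), HFC day 1, the 4 WS arrays of week 9, LFC and HF20 of week 12 and HF20 of week 15. Arrays of 4 diets were among them, HF75 not. These are groups formed from the data, after seeing it, and not the study's groups.

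Over all 38 arrays each of the 8 members rose with the list at an adjusted p under 0.05 in a permutation test of Pearson's r. Low p values were common there, with 40.5% of 20149 genes at an unadjusted p under 0.05. With arrays in separate sets, a pooled r mixes differences between the sets with those inside them, so its values are left out. Within the 27 arrays the relation held for 4 of 8 members, with p from 100000 two-sided permutations, adjusted over the 8. At an unadjusted p under 0.05 it was 5 of 8, against 5.17% of all genes. Adjusted over all 20149 genes, 3 members passed (Adipoq, Cfd and Retn) and Rbp4 did not. Adipoq had r 0.88 (rho 0.90, n = 26), Cfd r 0.87 (rho 0.87, n = 27) and Retn r 0.85 (rho 0.86, n = 27), each at a p of 1e-05, the smallest the permutations can give, and an adjusted p of 2.67e-05. Rbp4 had r 0.64 (rho 0.57, adjusted p 0.0006). Without the 2 arrays farthest from the median these became 0.86, 0.84, 0.81 and 0.70. These arrays share time points and scans, which free permutation ignores. With time point means subtracted and permutation within time points, chosen after seeing the data, Adipoq had r 0.84, Cfd 0.88, Retn 0.78 and Rbp4 0.69, the last with the highest adjusted p of the 4 (0.00264). The other 4 did not pass, with r 0.46 for Rarres2, 0.22 for Lep, 0.19 for Apln and 0.14 for Nampt, and 8.55% of all genes had an unadjusted p under 0.05. Adjusted over all genes, no gene passed in this form. Scans were not blocked within this set. Lep (r 0.31, adjusted p 0.168), Apln (r 0.40, 0.0635), Rarres2 (r 0.18, 0.426) and Nampt (r 0.11, 0.58) did not pass within these arrays by permutation. The r values of Lep, Apln, Nampt, Adipoq and Retn include the LFC array of week 3, where each was raised to -0.02. For Lep that raised value was the highest of the set, at a list level of 1.11 with 3 of 8 list genes well above background. The relation inside the lower set without that array was not tested, so the low r of Lep may rest on it. Where Lep was well above background, its levels were -5.47 to -1.67 on the 27 arrays and -0.35 to 3.89 on the 10. The sets were formed from the adipocyte list itself, which narrows the range of the list inside each. The relation of Lep inside the lower set was not tested against that between the sets.

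Within the 10 high arrays saturation limits what can be read, as Cfd was saturated on 10 of them, Adipoq on 9, Rbp4 on 7 and Retn and Rarres2 on 6 each, and 7 of the 8 list genes were saturated on some. Lep, Nampt and Apln were not. The 2 members that passed there (26.1% of all genes at an unadjusted p under 0.05) were Adipoq and Cfd (0 passed when adjusted over all genes, and 0 without the 2 arrays farthest from the median, at a lowest adjusted p of 0.105), whose spots were nearly all at the scanner's ceiling. Among these 10, Lep was lower on the day 1 and day 6 arrays (-0.08, 0.41 and -0.35) than on the arrays of weeks 9, 12 and 15 (1.77 to 3.89). The HFC array of day 1 and the LFC array of week 12 both had a list level of 5.35. With Cidec and Gpd1 saturated on 9 of the 10 arrays each, such list levels may be lower bounds, so this match is not certain. Apln went the other way for the HFC arrays of days 1 and 6 and the LFC array of day 6, at 1.50 to 2.30, against -1.28 to 0.40 on the later arrays. Early and late arrays were not tested against each other.

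**Figure D4:**
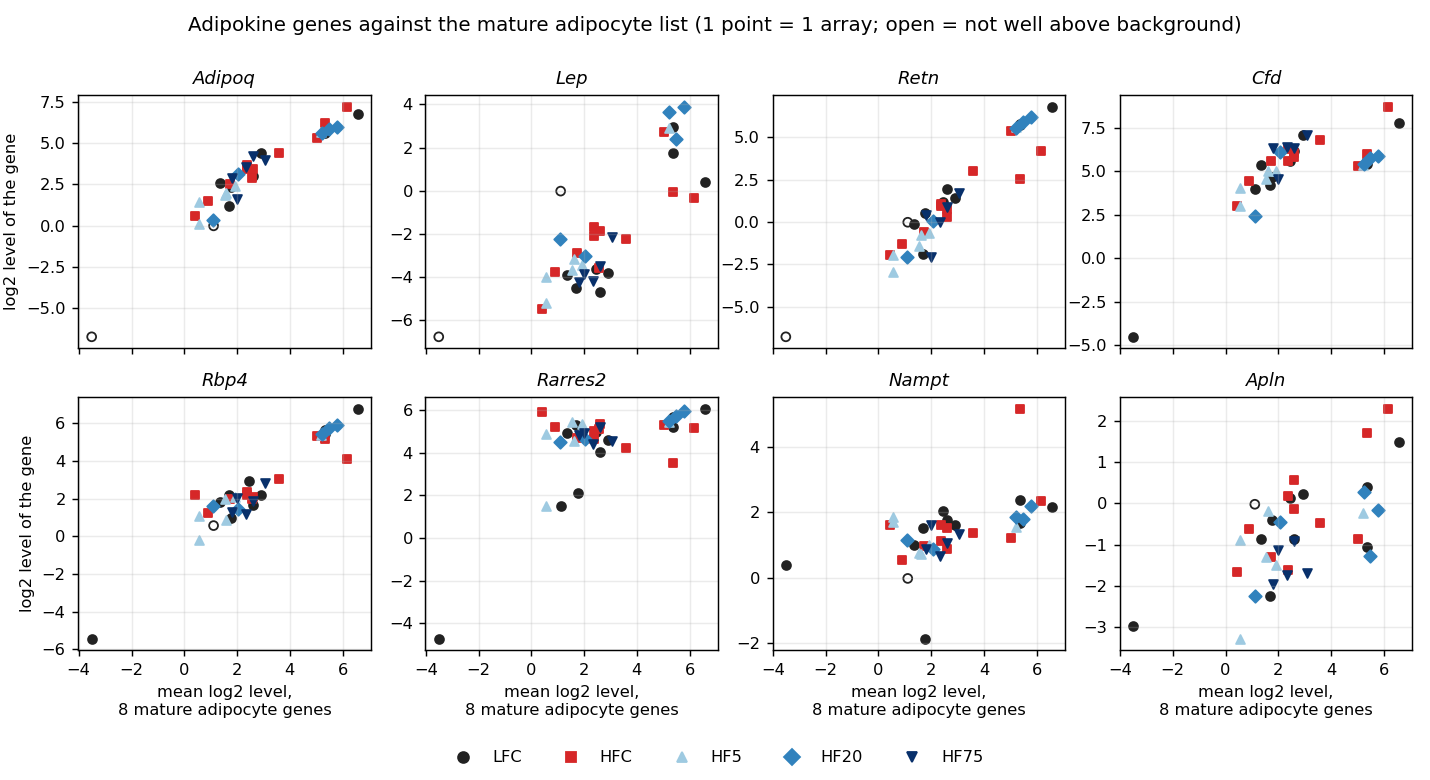
Level of each adipokine gene (log2) against the mean log2 level of 8 mature adipocyte genes, 1 point per array, 38 arrays, coloured by diet; open points were not well above background. Adipoq, Retn and Cfd rose with the list among the 27 arrays between 0.42 and 3.58. Lep, Apln, Rarres2 and Nampt did not pass there by permutation. On the LFC array of week 3, one of the 27, Adipoq, Lep, Retn, Nampt and Apln were raised to -0.02 and not measured.

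The LFC array of week 18, on which several folds rest, also differed in its cell type markers. Beside an adipocyte list level of -3.51, it had the lowest fibroblast and stromal progenitor list (-3.88) and the lowest endothelial list (-4.70) of the 38 arrays, and the highest neutrophil list (5.65), in which S100a8, S100a9, Mpo and Camp were saturated. Its macrophage list was 1.04. Nampt, at 0.40, was the member least apart from other arrays there. What was in this sample was not tested.

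Other cell type lists were fixed alongside. In HFC minus LFC all 7 fibroblast and all 6 endothelial genes were above 0. Their medians of 1.26 and 1.09 were larger than the members' 0.56. Both medians lean on week 18, where the fibroblast list was -3.88 in LFC and 3.57 in HFC. The endothelial list was -4.70 and 2.05 there, and no other pair was as far apart for either list. Higher pairs ran from 4 of 11 for Dcn to 10 of 11 for Pdgfra among the fibroblast genes. Of the epithelial genes, 0 of 5 were above 0 (median -1.32). In HF5 minus HFC the counts above 0 were 0 of 7 fibroblast, 0 of 6 endothelial and 5 of 5 epithelial genes. The medians were -0.51, -0.46 and 1.74. The endothelial list was -2.51 in HF5 and 1.37 in HFC at week 3. At weeks 6, 9, 12, 15 and 18 it was 1.14, 1.66, 2.50, 2.52 and 2.34 in HF5. The HFC levels of those weeks were 1.22, 1.58, 2.39, 2.01 and 2.05, so HF5 was far lower at week 3 alone. Macrophage medians in HFC minus LFC and HF5 minus HFC were 0.21 and -0.42. In HF20 minus HFC, 0 of 8 macrophage, 0 of 7 fibroblast and 0 of 6 endothelial genes were above 0, with medians of -0.51, -0.75 and -0.69. In HF75 minus HFC the medians were -0.96, -0.83 and -0.21, and all 5 epithelial genes were above 0 (median 1.88). B cell medians in the HFC, HF5, HF20 and HF75 comparisons were -0.55, -0.40, -1.20 and 0.29, T cell medians 0.11, -0.45, -1.75 and 0.03, neutrophil medians -0.37, -0.28, -1.19 and 0.93, and muscle medians -0.06, 0.12, -0.11 and 0.74. On the week 9 pair of HF75 and HFC the muscle list was 3.13 and -4.62, and the neutrophil list 0.95 and -2.53. Among the other weeks, HF75 was above HFC at weeks 3 and 15 for muscle and at week 12 for neutrophil. At the rest HF75 was below. No gene of these lists was called in any diet comparison. In the time point test 5 of 8 adipocyte genes passed (Plin1 at an adjusted p of 0.0091), as did 2 of 8 macrophage genes, 4 of 5 neutrophil genes, 3 of 5 epithelial genes and 1 of 5 B cell genes, and no fibroblast, endothelial, T cell or muscle gene, against 9.51% of all probes (0.21% with scan as a random block). Their part in the members' time courses was not tested.

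Adipokines act through receptors and partners, some of which these cells carry. Of 11 receptor and binding genes, 10 were tested and 0 called in each diet comparison (1.01% of all probes called in HF75 minus HFC, 0% in the others). The mean level was 4.83 for the adiponectin receptor Adipor2 and 2.39 for the adiponectin-binding Cdh13. In the time point test 2 of 10 passed, Adipor2 (adjusted p 0.0253) and Stra6, a receptor for retinol-bound Rbp4 (0.0269), against 9.51% of all probes.

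Downstream of factor D, 0 of 5 complement genes were called in any diet comparison. C3 had a mean level of 6.19 and Cfb, the factor D substrate, 3.74. Of 10 genes for adiponectin assembly, protein processing and NAD salvage, 0 were called by diet. Furin had a mean level of 2.06 and Erp44 one of 1.79, and Ero1l (adjusted p 0.0259) and Gstk1 (0.039) passed for time point, where 9.51% of all probes did.

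Among other secreted factors of fat tissue, 1 gene was called in a diet comparison: Fbn1, whose product fibrillin is cleaved to release asprosin. It was 1 of 18 tested in HF75 minus HFC, where 1.01% of all probes were called. The fibroblast list there had a median of -0.83, with 1 of 7 genes above 0 and 5 at an unadjusted p under 0.05. Fbn1 differed by -2.04 (SE 0.31, adjusted p 0.039) and was lower in 5 of 5 pairs. The call did not hold when any 1 of the 5 weeks was left out (adjusted p 0.0629 to 0.199, differences of -2.26 to -1.82), without the filter (0.0542), without the time point block (0.0866) or with all 38 arrays in 1 fit (0.818). Its difference was -1.27 in HF20 minus HFC and -1.08 in HF5 minus HFC, with the same HFC arrays and adjusted p values of 0.406 and 0.906. For time point 5 of 17 passed: Lcn2 (adjusted p 0.00221), Retnlg (0.0119), Agt (0.0217), Nrg4 (0.0226) and C1qtnf3 (0.0366), against 9.51% of all probes. With scan as a random block 0.21% of all probes passed, so these counts for the lists carry the same limit as those of the members.

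The genes most like each member, by Pearson's r over 37 or 38 arrays among 20156 genes, are given as a description. Adipoq was followed most closely by Cidec (0.98), Thrsp (0.95) and Pck1 (0.95), Retn by Adrb3 (0.98), Slc7a10 (0.97) and Plin1 (0.96), and Cfd by Car3 (0.93), Cidec (0.89) and Adipoq (0.87). For Lep they were Tmem45b (0.96), Mogat1 (0.94) and B3galt2 (0.94), and for Rbp4 the overlapping LOC100047573 (0.99), Ghr (0.97) and Apol6 (0.96). The first 3 members had adipocyte list genes beside them. Rarres2 was nearest to Sgce, Npdc1 and Htra1 (0.96 each), Nampt to Rab9 (0.92), Grsf1 (0.91) and Osbpl9 (0.89), and Apln to Aplnr (0.83), Ctnnbip1 (0.83) and Pvrl2 (0.82). These 3 members, like Lep and Rbp4, had no adipocyte list gene among their nearest 3. All these r values are pooled over the separate sets of arrays described above, so they do not separate differences between the sets from those inside them.

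Because Adipoq, Retn, Rbp4 and Lep were high on the same few arrays, and Cfd rose with the adipocyte list within the 27 arrays, the promoters of these 5 are shown for the letters they do and do not share. RefSeq promoter sequences (GRCm38.p6) were found for 7 of the 8 members, and Rarres2 is named only. The 120 bases before the start are printed 5′ to 3′, with matches to CCAAT, to TATAA, or to TTGCNNAA, a form of the C/EBP site, in capitals, searched on both strands:
Adipoq, chr16:23146416-23146535, plus strand: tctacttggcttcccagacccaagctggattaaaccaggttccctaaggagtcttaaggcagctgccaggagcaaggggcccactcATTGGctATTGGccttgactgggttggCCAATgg
Lep, chr6:29060101-29060220, plus strand: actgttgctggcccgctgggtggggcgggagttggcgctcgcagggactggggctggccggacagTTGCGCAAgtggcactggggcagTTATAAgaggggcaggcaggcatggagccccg
Retn, chr8:3655650-3655769, plus strand: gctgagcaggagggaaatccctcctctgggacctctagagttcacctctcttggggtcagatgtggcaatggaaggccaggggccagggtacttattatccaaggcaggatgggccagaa
Cfd, chr10:79890733-79890852, plus strand: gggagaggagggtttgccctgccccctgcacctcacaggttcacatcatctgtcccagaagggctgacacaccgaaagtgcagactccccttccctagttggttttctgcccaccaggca
Rbp4, chr19:38124812-38124931, minus strand: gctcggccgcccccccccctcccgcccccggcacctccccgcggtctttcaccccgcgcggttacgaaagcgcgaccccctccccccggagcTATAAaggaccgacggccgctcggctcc

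No motif was shared by all 5. Adipoq had CCAAT 3 times, on the same strand at -7 to -3 and on the opposite strand at -34 to -30 and -27 to -23, counted from the start. Lep had TTGCNNAA at -55 to -48, where the match reads on both strands, and TATAA on the same strand at -31 to -27, overlapped by a match on the opposite strand at -32 to -28. Rbp4 had TATAA at -28 to -24 of the start shown, and its other listed start had no match in 120 bases. Retn and Cfd had none of the 3 in this stretch. Of 32851 promoters, 21.3% held CCAAT, 11.8% TATAA and 4.15% TTGCNNAA in the same 120 bases. A match describes letters only, and no binding was measured here.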

How the data were processed

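RNA levels were measured with 1-colour Agilent 44K arrays. Per the file headers, the deposited intensity in the processed signal column came from Feature Extraction 10.5.1.1 with spatial and multiplicative detrending, no local background subtraction and no normalization between arrays; the labels name version 9.1. The deposited fold change table, whose values are log2 ratios the authors made between arrays, was used for gene symbols only. The values were log2 transformed and set to the 75th percentile of each array, outlier spots were dropped, and values the file does not mark as well above background were raised to the array's lowest marked level where they lay below it. Probes marked in either diet on at least 50% of its arrays were tested with limma 3.58.1 in R 4.3.3 (time point as a block, Benjamini-Hochberg over all probes tested, threshold 0.05). Where a gene has several probes, the one with the highest mean level stands for it. Python 3.11.15 with scipy 1.17.1 ran the permutation tests (two-sided). The fits were tested on simulated data with known differences. For HFC minus LFC some of the changed probes were missed and some unchanged ones were called, so a count of 0 called leaves differences possible.

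Named genes were the members, their 3 nearest genes, and from each pathway list the genes past the threshold (up to 4 by size in a diet comparison) or else the 2 with the highest mean level. Members, lists and this rule were chosen with earlier results of these data known. Alternatives covered the background correction, normalization, filter, raised values, outlier spots, probes, blocks, slides, scans and left-out arrays. The number of arrays, 1 per diet and labelled time where the series text speaks of 3 biological replicates, limits the precision. The 2 unassigned week 18 arrays were left out of all comparisons. Elane and Apela have no probe, and Adgre1 is listed as Emr1. The member probes have no genome position in the files. One gene of a list was left out and is not reported here.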

Additional observations from a re-analysis of the deposited data

Results flagged for a closer look

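An array lay far from the others of its diet for 5 of the 26 combinations of gene and diet that had 4 to 10 arrays. The mark is a gap to the nearest array, over the range of the group, above Dixon's 95% critical value, and chance marks about 1 in 20 groups. In HF5, Lep was 2.92 at week 9, where the next level was -3.19, and Retn was 5.59 (saturated) at week 9, where the next was -0.63. Both were on the HF5 array with WS in its title. Rarres2 was 1.50 on the HF5 array of week 3, below the next level of 4.55. That array also had the lowest endothelial list level of HF5 (-2.51) and the lowest Apln level of all arrays (-3.29). Cfd was 2.41 on the HF20 array of week 6, below the next level of 5.40, which was saturated. Adipoq was -6.78 on the LFC array of week 18, and the next level, -0.02, was that of the dim week 3 array, both raised to the lowest marked level. The cause of these values was not tested.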

How the results depend on the processing

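No member passed in any diet comparison under any alternative: of 484 differences, not counting those with 1 time point left out, 28 changed sign and 0 passed. Leaving out 1 time point changed the sign of 10 of 88 differences in HFC minus LFC, 1 of 48 in HF5, 4 of 40 in HF20, 2 of 40 in HF75 and 7 of 88 in late minus early, and 0 passed. Over all of these the lowest adjusted p values were 0.719 (HFC minus LFC), 0.255 (HF5), 0.133 (HF20), 0.0542 (HF75) and 0.101 (late minus early). Without the time point block 0 members were called in each comparison.

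In HFC minus LFC, Lep was -0.39 with normexp, and Retn 0.07 with values not raised, 0.11 with slide as a random block and 0.02 without week 9. On shared slides alone Lep was -0.58, Rbp4 -0.54 and Apln -0.42. Without weeks 3 and 18 and day 14, chosen after seeing the data, Adipoq was -0.31, Cfd -0.29, Rbp4 -0.53 and Rarres2 -0.03. With all 38 arrays in 1 fit, Nampt was -0.09 in HF5 minus HFC and -0.32 in HF75 minus HFC, and in HF20 minus HFC Cfd was -0.08, Rarres2 0.03 and Apln -0.06. In HF20 minus HFC Rarres2 was 0.19 and Apln -0.10 with normexp, and Rarres2 0.14 with quantile normalization. Without week 9 Apln was -0.11 in HF20 minus HFC and Retn 0.60 in HF75 minus HFC. Without week 3 Apln was 0.17 in HF5 minus HFC and -0.04 in HF20 minus HFC. Retn was 0.03 in HF75 minus HFC with scan as a random block. In late minus early, normexp gave Adipoq -0.65, Lep 0.01, Retn -0.76 and Rbp4 -0.64. Normexp moved the median of all probes to -0.30 (HF5), -0.39 (HF20), -0.23 (HF75) and 0.70 (late minus early), where it called 17% of all probes. The cause of these changes was not tested.

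Leaving out 1 time point at a time moved HFC minus LFC over -0.22 to 0.75 for Lep, -0.80 to 0.47 for Retn and -0.08 to 1.02 for Rbp4. The range was -0.36 to 0.17 for Apln in HF5, -0.11 to 0.35 for Apln, -0.18 to 0.32 for Rarres2 and -0.04 to 0.44 for Cfd in HF20, and -0.87 to 0.60 for Retn, -0.05 to 0.16 for Nampt, -2.06 to -0.43 for Lep and -1.06 to -0.27 for Rbp4 in HF75. In HF20 it was 1.55 to 3.38 for Retn, 0.79 to 1.96 for Adipoq and 0.71 to 1.98 for Rbp4. For late minus early it was -1.39 to 1.09 for Adipoq, -1.26 to 1.30 for Retn, -0.38 to 2.02 for Cfd, -0.99 to 1.20 for Rbp4, 0.51 to 2.46 for Rarres2 and -2.93 to -0.75 for Lep.

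The time point test called 3 members (9.51% of all probes), 5 with normexp (26%), 0 among probes well above background on all arrays (16.7%; 2 members were tested), 1 without week 9 (3.99%), 6 without the LFC arrays of week 3, day 14 and week 18 (31.6%), 0 without the WS arrays (2.95%) and 0 with scan as a random block (0.21%). The other alternatives called 2 to 4 (4.39% to 28.4%). The relation with the adipocyte list passed for 8 members over 38 arrays, for 7 with quantile normalization or scan means subtracted, for 4 within the 27 lower arrays, also when permuted within time points, and for 2 within the 10 higher ones, where Lep had r -0.55 by permutation, and 0.15 without the 2 arrays farthest from the median, when 0 members passed. Counts of members past 2-fold, 37 over all pairs, were 36 to 38 under the alternatives. Signal over background limits the LFC array of week 3, and saturation limits Adipoq, Retn, Cfd, Rbp4 and Rarres2.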

Other observations

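Of the deposited arrays, 2 week 18 arrays carry titles and diet labels that name different KAL-1 doses, HF20 and HF75, so they belong to no group. The first had 49.6% of spots marked as outliers and a 75th percentile of 3509 intensity units. Its levels were 0.77 for Adipoq, -1.17 for Retn, 2.87 for Cfd, -1.15 for Rbp4, 2.50 for Rarres2 and -1.40 for Nampt, with Lep and Apln dropped. Its adipocyte list level was 0.36. The second had 0.119% outlier spots. There Adipoq was 3.80, Lep -1.34, Retn 1.21, Cfd 6.49, Rbp4 2.54, Rarres2 5.61, Nampt 1.67 and Apln -1.80, with an adipocyte list level of 3.11.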
